A study of Mus musculus with 4 samples.

Results

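Genes of sodium entry and sodium export were followed in mouse hearts that overexpress the T-box transcription factor Tbx20. They were taken by name, as a list set for this work, from a series-wide table of 23439 distinct gene symbols. The 5 genes are Scn4a, Scn4b, Scn7a, Atp1b1 and Fxyd1, and all 5 had a mean of at least 1 FPKM over the 4 libraries. FPKM is a fragment count divided by transcript length and by the mapped fragments of its library. The RNA was from hearts of 12-week-old mice, with no chamber named in the labels. The Tbx20_OE group, 2 libraries, had the genotype alphaMHCMerCreMer+/-;CAGCATTbx20, and the control group, 2 libraries, had alphaMHCMerCreMer+/- alone. Both groups thus carried MerCreMer, a Cre recombinase that tamoxifen regulates and that the alpha myosin heavy chain promoter drives in cardiomyocytes. Induction of Tbx20 took place at 8 weeks and the hearts were studied 4 weeks later, and the labels name no inducing agent. RNA was taken from each heart separately, per the labels' protocols, and the non-muscle cells of the heart are included.

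Sodium enters a cardiomyocyte at the upstroke of the action potential through voltage-gated channels, each made of a large pore-forming alpha subunit and small beta subunits that cross the membrane in a single pass. The Na,K-ATPase, or sodium pump, then carries sodium out and potassium in, and it is built from a catalytic alpha subunit, a beta subunit needed to bring it to the cell surface, and a small FXYD protein that tunes its activity.

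By role, Scn4a encodes Nav1.4, the alpha subunit best known from skeletal muscle, and lies on chromosome 11 from 106318593 to 106349390 of mm10. Scn7a encodes Nax, an unusual alpha subunit known in glia as a sensor of extracellular sodium, on chromosome 2 from 66673426 to 66784910. Scn4b encodes the beta4 channel subunit, on chromosome 9 from 45139042 to 45154061. Atp1b1 encodes the beta1 subunit of the pump, on chromosome 1 from 164437099 to 164458355, and Fxyd1 encodes phospholemman, the FXYD protein of heart and skeletal muscle, on chromosome 7 from 31051678 to 31055656. Several of these loci sit beside relatives. Scn2b, another beta subunit gene, ends 8.97 kb from Scn4b, and Fxyd6 and Fxyd2 lie 216 and 246 kb on its other side. Fxyd7 ends 223 bases from Fxyd1, with Fxyd5 and Fxyd3 within 14.9 kb, and Scn9a lies 38.5 kb from Scn7a. Of the 5, Atp1b1 alone overlaps another GENCODE M21 gene, Nme7 on the opposite strand, which reaches 617 bases into the GENCODE gene. The sources used here do not say whether counting used strand, so reads from that overlap cannot be assigned to either gene.

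All 5 members matched a RefSeq promoter window of build GRCm38.p6, which covers 250 bases before and 50 bases after the annotated start. Of these windows 3 are printed, because Scn4a and Scn4b are the members whose groups did not overlap and Scn7a holds most of the motif matches. Capitals mark matches to 4 motifs searched on both strands, given here by the letters of 1 strand.
Scn4a (chr11:106349341-106349640, minus strand): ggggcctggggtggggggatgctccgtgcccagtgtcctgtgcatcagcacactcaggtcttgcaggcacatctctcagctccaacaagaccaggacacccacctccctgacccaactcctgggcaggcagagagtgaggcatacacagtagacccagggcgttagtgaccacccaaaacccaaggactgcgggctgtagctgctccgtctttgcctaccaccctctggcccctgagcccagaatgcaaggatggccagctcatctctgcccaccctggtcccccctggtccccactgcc
Scn4b (chr9:45138374-45138673, plus strand): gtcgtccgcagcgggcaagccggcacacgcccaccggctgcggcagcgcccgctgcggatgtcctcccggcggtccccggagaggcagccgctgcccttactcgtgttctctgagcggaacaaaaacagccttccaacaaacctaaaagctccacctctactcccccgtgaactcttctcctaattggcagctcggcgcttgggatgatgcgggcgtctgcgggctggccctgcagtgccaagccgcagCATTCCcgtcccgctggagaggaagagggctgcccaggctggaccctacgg
Scn7a (chr2:66784861-66785160, minus strand): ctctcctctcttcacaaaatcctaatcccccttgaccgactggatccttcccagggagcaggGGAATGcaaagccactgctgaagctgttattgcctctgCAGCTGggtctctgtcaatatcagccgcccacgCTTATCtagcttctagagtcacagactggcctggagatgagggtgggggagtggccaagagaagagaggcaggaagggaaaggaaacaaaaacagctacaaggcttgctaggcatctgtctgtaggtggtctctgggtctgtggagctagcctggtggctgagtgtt
The T-box core AGGTGT was in none of the 5 member windows, and 13.7% of 32851 windows of the same length held it. That says only that these letters are not in these windows. The TEAD core CATTCC, in 14.7% of all windows, was found in Scn4b across the start site and, on the other strand, in Scn7a. The GATA core GATAAG, in 7.44% of all windows, and the E-box CAGCTG, in 16.3%, were each found in Scn7a alone among the 5, the GATA core on the other strand. The matches did not overlap each other. The RefSeq start of Scn4b lies 418 bases before the locus in the deposited files and that of Fxyd1 lies 803 bases inside it, while the other 3 starts coincide. GC content was 63.0% for the Scn4a window, 66.3% for Scn4b, 54.0% for Scn7a, 71.0% for Atp1b1 and 58.7% for Fxyd1, with a median of 52.7% over all windows.

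The libraries differed in ways that touch these genes. Genes of the list named ventricular muscle were expressed in every library, with Myl2 between 12426 and 16732 FPKM and Myh6 between 2130 and 2500 FPKM. Of its 10 genes, 5 were lowest in control replicate 2 and 4 were highest there. Actc1 was at 7634 and 7824 FPKM in Tbx20_OE and 6554 and 4295 FPKM in control. Tnni3 was at 6644 and 4864 FPKM in Tbx20_OE and 6315 and 8625 FPKM in control. Myh6 is not a marker of the ventricle alone, and the list was not used to separate the chambers. Control replicate 2 stood apart. Its Pearson correlation with the other libraries on the log2 scale was 0.927 to 0.957, against 0.981 to 0.982 among the others, and its deviations followed transcript GC content across genes (Spearman rho of 0.45). The atrial muscle list summed to 255 and 143 FPKM in Tbx20_OE, against 146 and 3759 FPKM in the control replicates, and 6 of its 9 genes were highest in control replicate 2. Bmp10, also on that list, was listed at 0 in all 4 libraries and so carries nothing on this difference. The sums do not show how far each gene differed, and the other genes of the list are not reported here. Control replicate 2 was the lowest library for 54.2% of the 10513 tested genes and the highest for 25.5%. The red cell list summed to 477 and 40.9 FPKM in Tbx20_OE, against 75.3 and 1414 FPKM in control, and smooth muscle genes to 106 and 73.3 FPKM against 50.3 and 65.8 FPKM. Fibroblast genes summed to 521 and 435 FPKM in Tbx20_OE and 391 and 399 FPKM in control, endothelial genes to 127 and 106 FPKM and 110 and 82.8 FPKM, and conduction system genes to 6.14 and 4.08 FPKM and 5.68 and 10.1 FPKM, in the same order of groups. No gene of the 9 marker lists was called by limma, where 0.019% of all tested genes were called. This does not show that the groups held the same cells. Markers under a mean of 1 FPKM were not tested, and a test between groups is not made to find a difference between the 2 controls. The part of these marker levels in the members' values was not tested, so each member is given with and without control replicate 2. The Tbx20 transcript itself was at 11.03 and 16.4 FPKM in Tbx20_OE and at 6.99 and 4.58 FPKM in control (log2 fold change 1.11, standard error 0.30, limma adjusted p = 0.848).

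Among the members Scn4b had the largest fold change, with higher values in Tbx20_OE. Atp1b1 and Scn4a also had higher means in Tbx20_OE, and their order turned with the pseudocount. Scn7a was nearly level, and Fxyd1 had a lower mean in Tbx20_OE. None of the 5 was called by limma with adjustment over all genes. In that test 2 genes were called, 0.019% of all tested and both higher in Tbx20_OE, and 160, or 1.52%, had an unadjusted p under 0.05. A p that misses the threshold does not show that a level was the same. The log2(FPKM + 1) scale was used throughout, on which fold changes of low genes come out too small, and standard errors are moderated. In bulk hearts, fewer cells of a type and less RNA per cell cannot be told apart.

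Scn4b, whose product shapes how the channel opens and recovers, was at 6.65 and 10.6 FPKM in Tbx20_OE, against 5.82 and 1.70 FPKM in control. Both Tbx20_OE libraries lay above both controls, but Tbx20_OE replicate 1 and control replicate 1 were close, and control replicate 2 was far below all others. Its mean was 8.62 ± 2.79 FPKM in Tbx20_OE and 3.76 ± 2.91 FPKM in control (SD, n = 2 each). The log2 fold change was 1.13 ± 0.48 (standard error), or 2.19-fold, with a limma adjusted p = 0.848 and a 95% interval of -0.066 to 2.33. By size it ranked 34 among the 7472 positive fold changes of the fit with all 4 libraries. The rank without control replicate 2 was not computed. Without control replicate 2 the log2 fold change was 0.47 (limma adjusted p = 1). Without control replicate 1 it was 1.80 and passed (limma adjusted p = 0.0193), where control replicate 2 is left as the only control and is assumed to vary like the Tbx20_OE pair. In that fit 13.6% of all tested genes were called, 11.4% as higher.

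Scn4a was at 1.67 and 2.34 FPKM in Tbx20_OE, against 1.53 and 0.781 FPKM in control. These low values ran in the same order over the libraries as those of Scn4b, and the groups did not overlap. The share of all genes with this order was not computed, and control replicate 2 was the lowest library for 54.2% of tested genes. The mean was 2.01 ± 0.479 FPKM in Tbx20_OE and 1.15 ± 0.529 FPKM in control (SD, n = 2 each). On log2(FPKM + 1) the log2 fold change was 0.49 ± 0.25 (standard error, limma adjusted p = 0.848). It was 0.24 without control replicate 2. Both groups of 2 were apart, higher in Tbx20_OE, for 2 of the 5 members, Scn4a and Scn4b, against 28.1% of all tested genes. After median centring of the libraries 10.3% of all genes were so, and of the members Scn4b alone, at 6.43 and 10.2 FPKM in Tbx20_OE and 6.02 and 2.07 FPKM in control on the centred scale. Scn4b alone was also apart in the deposited quantile-normalized table, at 6.28 and 9.84 FPKM in Tbx20_OE and 5.85 and 1.86 FPKM in control, and with GC-corrected values. The share of all genes apart was not computed for either setting, so no background is given for them. Skeletal muscle was looked for beside Scn4a. Its list of 10 genes summed to 6.26 and 6.79 FPKM in Tbx20_OE and to 4.52 and 6.39 FPKM in control. Mybpc2, the largest part in each library, was at 4.41 and 5.45 FPKM in Tbx20_OE and 3.21 and 3.01 FPKM in control. In control replicate 2, 6 of the 10 genes were highest and 1 was lowest, so the sum does not stand for each gene. The part of such cells in the values of Scn4a was not tested. Of that list 8 genes stayed below 1 FPKM in every library, and the fast myosin gene Myh4 was listed at 0 in all 4.

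Scn7a was at 3.90 and 3.57 FPKM in Tbx20_OE, against 2.87 and 3.71 FPKM in control. It varied least among the members, by 1.36-fold between its lowest and highest library, and the groups overlapped. The mean was 3.73 ± 0.234 FPKM in Tbx20_OE and 3.29 ± 0.593 FPKM in control (SD, n = 2 each). On log2(FPKM + 1) the log2 fold change was 0.15 ± 0.21 (standard error, limma adjusted p = 0.871, 95% interval -0.37 to 0.66). Without control replicate 2 it was 0.29. The median of all tested genes was also 0.15 with all libraries, and the sign turned after median centring (-0.015) and with GC-corrected values (-0.15). At 40.2% GC its transcript was lower than all but 5.79% of tested transcripts. Markers of Schwann cells and peripheral glia, a known home of Scn7a, summed to 9.69 and 9.43 FPKM in Tbx20_OE and to 7.26 and 9.33 FPKM in control. Control replicate 1 was lowest for this sum, and also for the skeletal muscle, fibroblast and smooth muscle sums. In control replicate 2, 3 of the 10 genes were lowest and 5 highest, with Cnp, the largest part of the sum, among the lowest. Of the 10 genes 7 stayed below 1 FPKM in every library. The part of such cells in the values of Scn7a was not tested.

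**Figure D1:**
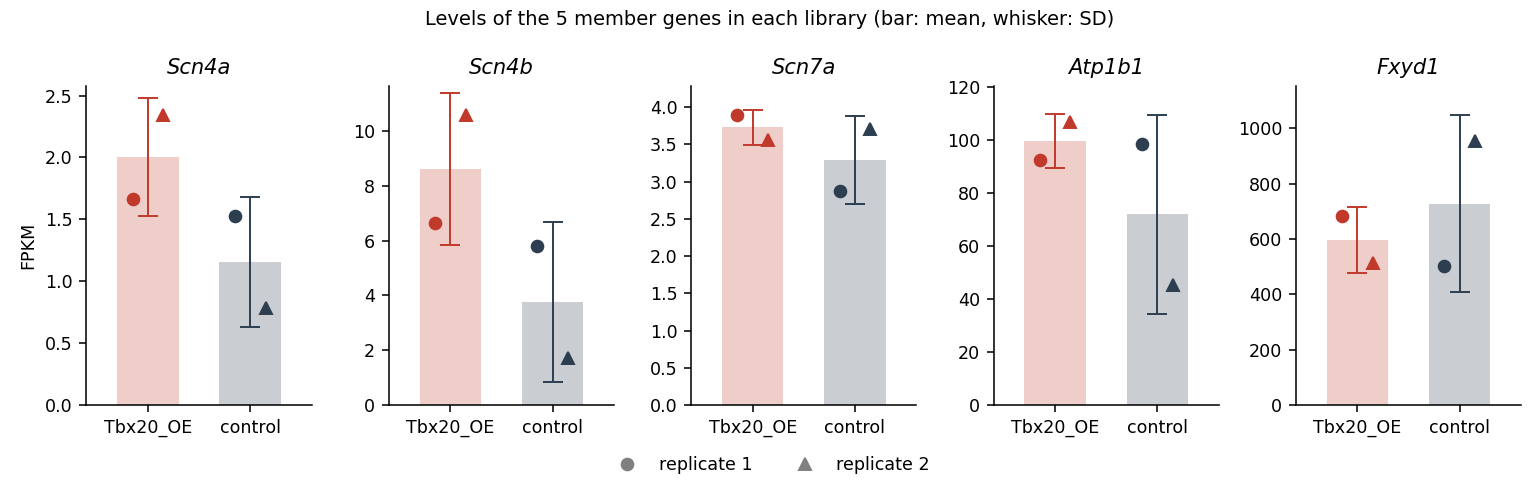
FPKM of each member gene (vertical axis, from 0, with its own scale) in the 2 Tbx20_OE and 2 control libraries. Circles are replicate 1, triangles replicate 2, bars the group mean and whiskers the SD. Scn4a, Scn4b and Atp1b1 are lowest in control replicate 2, where Fxyd1 is highest at 954 FPKM.

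Atp1b1, the main beta subunit of the heart's pump, was at 92.3 and 107 FPKM in Tbx20_OE, against 98.4 and 45.3 FPKM in control. Control replicate 1 lay between the Tbx20_OE libraries, so the groups overlapped, and control replicate 2 was far below the other 3. The mean was 99.5 ± 10.2 FPKM in Tbx20_OE and 71.9 ± 37.5 FPKM in control (SD, n = 2 each). On log2(FPKM + 1) the log2 fold change was 0.56 ± 0.41 (standard error, limma adjusted p = 0.848). Without control replicate 2 it was 0.012, and without control replicate 1 it was 1.11 and passed (limma adjusted p = 0.0314), again against control replicate 2 alone. Atp1b1 made up 72.2% and 74.5% of the summed FPKM of the beta genes Atp1b1, Atp1b2 and Atp1b3 in Tbx20_OE, and 75.0% and 65.4% in control.

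Fxyd1 was the most abundant member in every library, at 682 and 513 FPKM in Tbx20_OE, against 501 and 954 FPKM in control. The control values enclosed both Tbx20_OE values, and the highest library was control replicate 2. The mean was 598 ± 119 FPKM in Tbx20_OE and 728 ± 321 FPKM in control (SD, n = 2 each). On log2(FPKM + 1) the log2 fold change was -0.22 ± 0.40 (standard error, limma adjusted p = 0.892, 95% interval -1.21 to 0.76). Without control replicate 2 the log2 fold change was 0.24, and after median centring it was -0.39. Its transcript, at 58.1% GC, lay above 90.5% of tested transcripts, and the part of GC content in its high value in control replicate 2 was not tested. Phospholemman binds the assembled pump, and the transcript levels of Fxyd1 and Atp1b1 are set beside each other as a description. Such a ratio does not measure the proteins in the pump. The transcript of Atp1b1 has 49.5% GC, and the part of GC content in the ratio was not tested. Fxyd1 stood at 7.39 and 4.81 times Atp1b1 in Tbx20_OE and at 5.09 and 21.1 times in control, where control replicate 2 was again the library apart.

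**Figure D2:**
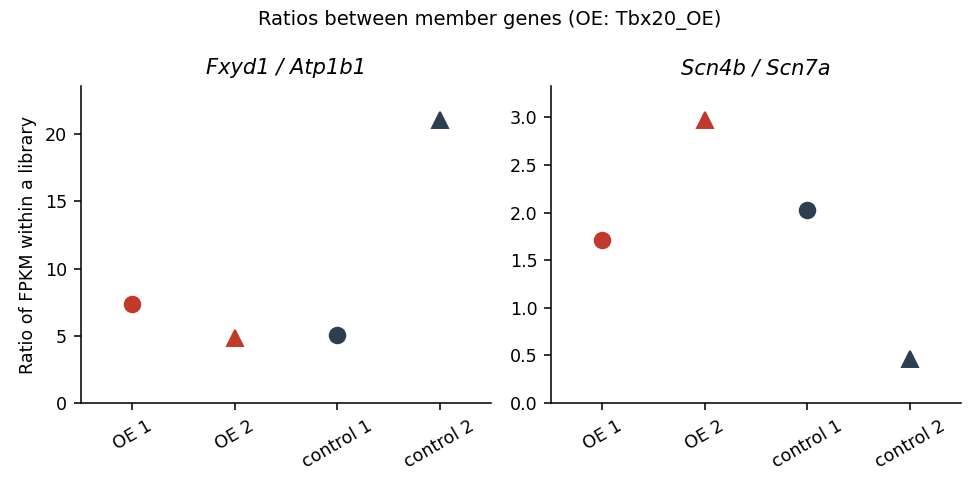
Ratios of FPKM within each library (vertical axes, from 0) for Fxyd1 over Atp1b1 and Scn4b over Scn7a. Each point is 1 library, with circles for replicate 1 and triangles for replicate 2. Both ratios depart in control replicate 2, at 21.1 for Fxyd1 over Atp1b1 and 0.459 for Scn4b over Scn7a.

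In order of level, Fxyd1 and Atp1b1 came first and Scn4a last in all 4 libraries. Scn4b stood above Scn7a in 3 libraries, and below it in control replicate 2, with ratios of Scn4b to Scn7a of 1.71 and 2.97 in Tbx20_OE and 2.02 and 0.459 in control, so these neighbours do not keep an order beyond the spread. With 2 libraries in each group the smallest p of an exact two-sided permutation test is 0.333, which Scn4a and Scn4b reached, with p = 0.667 for Scn7a and Atp1b1 and p = 1 for Fxyd1.

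**Figure D3:**
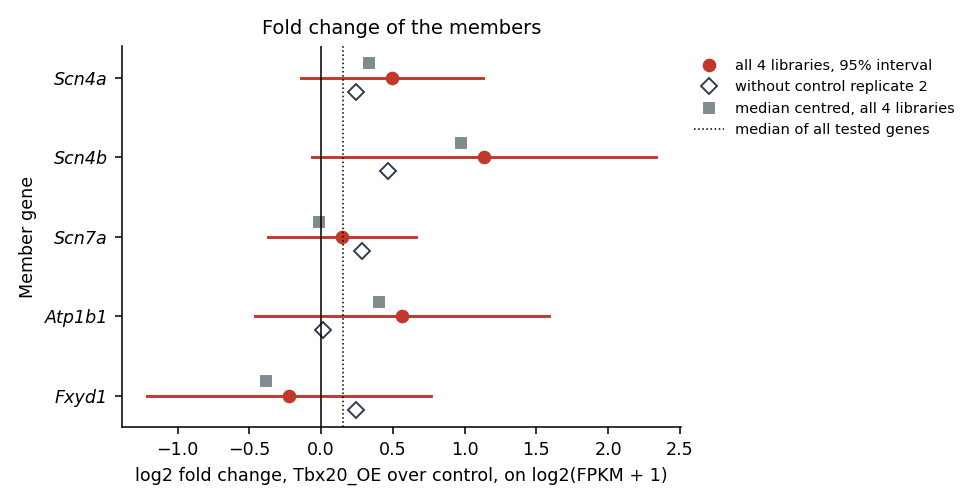
Log2 fold change of each member, Tbx20_OE over control, on log2(FPKM + 1) (horizontal axis). Filled circles with lines are the fit over all 4 libraries with its 95% interval, squares the median-centred fit, diamonds the fit without control replicate 2, and the dotted line is the median of all tested genes at 0.15. All 5 intervals include 0, while Fxyd1 changes side without control replicate 2.

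The other genes of sodium handling were read from a list of 60 symbols in all, of which 59 had usable values and 36 had a mean of at least 1 FPKM. None of the 36 passed the limma test over all genes. Of them, 26 (72.2%) had a positive log2 fold change, against 71.1% of all tested genes, and the median was 0.22, against 0.15. Without control replicate 2, 23 had a positive log2 fold change, against 68.3% of all tested genes, with a median of 0.079, which was also the median of all tested genes in that fit. In 7 the groups were apart with higher values in Tbx20_OE and in 3 with lower, against 28.1% and 4.77% of all tested genes. The share with a positive fold change was thus near that of all genes. After median centring 19 of the 36 were positive. Without control replicate 1, 4 genes of the list were called, all higher, among them Scn4b, Atp1b1 and Ppp1ca, a catalytic subunit of protein phosphatase 1. In that fit 11.4% of all tested genes were called higher, so 4 of 36 was near the background.

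Of the 11 channel alpha genes and 4 channel beta genes on the list, 8 and 2 stayed under a mean of 1 FPKM and were not tested. Scn9a, the neighbour of Scn7a, was listed at 0 in every library. Scn2b, the neighbour of Scn4b, was at 0.251 and 0.258 FPKM in Tbx20_OE and 0.277 and 0.120 FPKM in control. Scn3b, a further beta subunit gene, was at 0.323 and 0.207 FPKM in Tbx20_OE and 0.129 and 0.079 FPKM in control. These low values were far under those of Scn4b in every library.

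In the pump, Atp1b3, a further beta subunit, was at 31.7 and 32.4 FPKM in Tbx20_OE and 29.3 and 20.1 FPKM in control (log2 0.39, standard error 0.27, and 0.13 without control replicate 2). Atp1b2, known mainly from the nervous system, was at 3.83 and 4.15 FPKM in Tbx20_OE and 3.52 and 3.90 FPKM in control (log2 0.084, standard error 0.19). Both Tbx20_OE libraries lay above both controls for Atp1b3, while the groups overlapped for Atp1b2.

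Of the 4 tested FXYD genes none was called, and 1 had a positive log2 fold change with all libraries, against 3 without control replicate 2. Fxyd6, a pump regulator known from the brain, was at 16.4 and 22.3 FPKM in Tbx20_OE and 11.6 and 12.0 FPKM in control, and the controls were close to each other. Its log2 fold change of 0.65 (standard error 0.24, limma adjusted p = 0.848) was 0.68 without control replicate 2, so it was as large without that library. Fxyd6 was the only gene of the 36 with an unadjusted limma p under 0.05, against 1.52% of all tested genes. Fxyd5, or dysadherin, resembled Fxyd1, at 20.1 and 14.6 FPKM in Tbx20_OE and 15.3 and 29.6 FPKM in control (log2 -0.30, standard error 0.37). Fxyd2, the gamma subunit of the kidney pump, was at 4.85 and 3.002 FPKM in Tbx20_OE and 4.09 and 6.45 FPKM in control (log2 -0.35, standard error 0.30). Fxyd1, Fxyd2 and Fxyd5 were each highest in control replicate 2, and without it their log2 fold changes were 0.24, -0.074 and 0.15.

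Of the sodium exchangers and cotransporters, Slc4a4, a sodium bicarbonate cotransporter, was at 2.01 and 3.19 FPKM in Tbx20_OE and 1.89 and 1.34 FPKM in control (log2 0.45, standard error 0.25). Slc12a2, which brings in sodium with potassium and chloride, was at 4.09 and 4.32 FPKM in Tbx20_OE and 4.35 and 2.21 FPKM in control (log2 0.33, standard error 0.29), and without control replicate 2 its log2 fold change turned to -0.041. Slc8b1, the mitochondrial sodium-calcium exchanger, had a log2 fold change of -0.11 (standard error 0.19). Slc8a1, the sodium-calcium exchanger of the cell surface, was listed at 0 with a failed estimate in control replicate 2 and was not tested, and it was at 8.66 and 14.3 FPKM in Tbx20_OE and 9.20 FPKM in control replicate 1. Pln, listed as a pump partner, encodes phospholamban, which inhibits the calcium pump rather than the sodium pump. Among the genes listed as partners of channel and pump, the largest positive log2 fold changes were 0.57 for Pln, 0.56 for the kinase gene Camk2d and 0.53 for Gpd1l, a gene linked to channel surface expression. These were 0.078, 0.14 and 0.18 without control replicate 2. Negative log2 fold changes were -0.25 for the kinase gene Sgk1 and -0.097 for Rangrf, a channel trafficking factor (limma adjusted p from 0.848 to 0.943 for these 5). Rangrf turned to 0.16 without control replicate 2. Sgk1 was at 21.1 and 21.6 FPKM in Tbx20_OE and 37.9 and 17.1 FPKM in control, and without control replicate 2 its log2 fold change was -0.80.

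**Figure D4:**
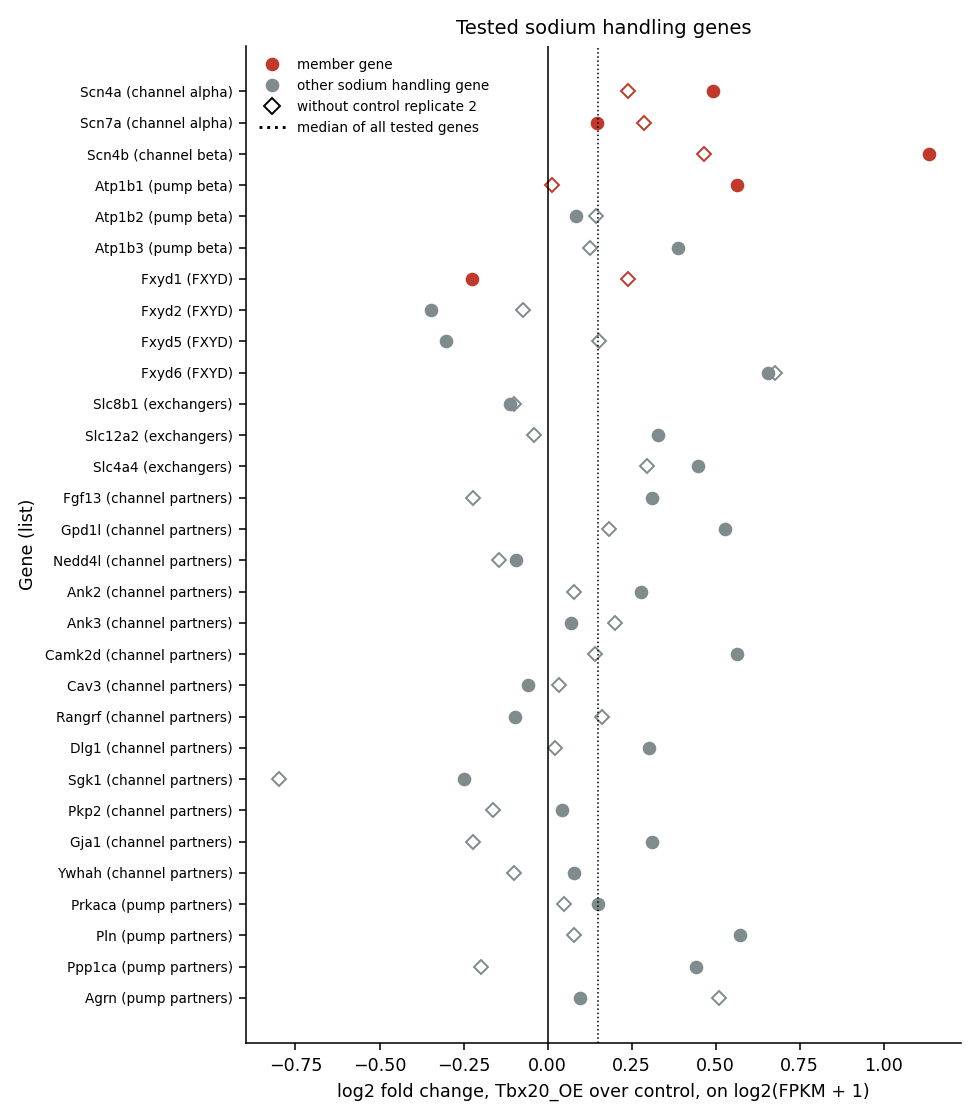
Log2 fold change, Tbx20_OE over control, of 30 of the 36 tested sodium handling genes on log2(FPKM + 1) (horizontal axis), with the list of each gene in brackets. Filled circles use all 4 libraries, red for the 5 members, open diamonds leave out control replicate 2, and the dotted line is the median of all tested genes. Scn4b lies farthest right at 1.13 and moves to 0.47 without control replicate 2, while Fxyd6 stays at 0.65 and 0.68.

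The authors' deposited table, made with cuffdiff per its header, pools each group and gave Scn4b at 13.3 FPKM in Tbx20_OE and 6.28 FPKM in control, with log2 fold change 1.08, p = 0.0034 and q = 0.591. Of 12850 genes tested in the authors' deposited table, 0.755% were higher in Tbx20_OE with p under 0.05, and 0.241% were marked significant, no member among them. Scn4b and Fxyd6 are the 2 genes of the sodium list among the authors' 61 selected as higher, 0.475% of tested genes, and that selection used p under 0.05, log2 above 0.5, more than 3 FPKM in Tbx20_OE and at most 6-fold within a group. Scn4b differed 3.41-fold between the controls and 1.59-fold between the Tbx20_OE libraries, inside that limit. The authors' deposited table gave Fxyd6 log2 fold change 0.67 (p = 0.0463, q = 0.999) and Scn4a 0.75 (p = 0.0518, q = 0.999). In the same authors' deposited table Atp1b1 was at 116 FPKM in Tbx20_OE and 96.3 FPKM in control (q = 0.999), for a locus that begins at 164307672 and so takes in most of Nme7. The authors' deposited table gave Fxyd1 928 FPKM in Tbx20_OE and 1143 FPKM in control (q = 0.999). The group values in the authors' deposited table lay above both libraries of the group for the members and Fxyd6, except Atp1b1 in control, so their levels are on another scale than the library FPKM. For Scn7a the authors' deposited table ran the other way from the library values, at 5.005 FPKM in Tbx20_OE and 5.999 FPKM in control (log2 -0.26, q = 0.999).

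The genes with patterns most like each member were found by the Euclidean distance between centred log2(FPKM + 1) profiles over the 4 libraries, among 9989 named genes, as a description with no test. For Scn4b they were Pex11a, Pgap2 and Taco1 (distances 0.107, 0.131 and 0.193), and Pgap2 for example was at 21.4 and 32.6 FPKM in Tbx20_OE and 17.97 and 6.05 FPKM in control. For Scn4a they were Cyp51, Erlin2 and Trmt11 (0.013, 0.014 and 0.016). For Scn7a they were Abca2, Cers4 and Gtf2h3 (0.021, 0.026 and 0.027). For Atp1b1 they were Vcp, Cpe and Acadsb (0.033, 0.037 and 0.039), and Vcp was at 137 and 153 FPKM in Tbx20_OE and 144 and 66.7 FPKM in control. For Fxyd1 they were Mmp23, Snapc4 and Edem2 (0.042, 0.045 and 0.052), each with its highest value in control replicate 2. No member was among the 3 nearest of another.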

How the data were processed

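RNA sequencing of 4 heart libraries was used. The submitters' processing notes name TopHat2 2.0.13, Cufflinks 2.1.1 and mm10. Neither the annotation release nor the strand setting is stated there. FPKM per gene was deposited by the authors in a table of the whole series, used here, and for each library, and both held the same values for all 93772 gene and library pairs compared. A quantile-normalized FPKM table and a comparison by cuffdiff, with log2 fold changes, p-values and q-values per the file headers, were also deposited, as were selection flags, which are scores of 0 or 1. No read counts were used, so depth and counting error are unknown. Summed FPKM was 452733 to 512225 per library. The 4 genes with a failed estimate (Slc8a1 among them) and 1 unmatched symbol were left out, and for 258 symbols with several rows the row with the highest mean was kept. Starts are shown 1-based, 1 above those in the files.

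Values were analysed as log2(FPKM + 1) for the 10513 genes with a mean of at least 1 FPKM, by limma 3.58.1 in R 4.3.3 with a mean-variance trend and the group as the only term, with Benjamini-Hochberg adjustment at 0.05 over all these genes. The residual degrees of freedom were 2. The limma step was tested on simulated data. Named were the 5 members, the tested channel, pump, FXYD and exchanger genes, up to 3 partner genes each way by fold change, the 3 nearest patterns of each member, and markers. Some genes that this rule names are not reported here, though counts over the list include them. Members and lists were chosen with earlier results of these data known. Promoter windows came from RefSeq (GRCm38.p6), transcript GC from the longest GENCODE M21 transcript, available for 95.4% of tested genes. The settings varied were pseudocount, filter, scaling, source of FPKM, limma options and replicate block, and each library was omitted in turn. GC-corrected values, in 10 bins, and a crossed block were added after seeing the data. Tables and plots were made in Python 3.11.15 (matplotlib 3.10.9, scipy 1.17.1, numpy 2.4.6, pandas 2.3.3).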

Additional observations from a re-analysis of the deposited data

How the results depend on the processing

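With 2 libraries a group, 1 library decides most of these values. With each library left out in turn, the log2 fold change lay between 0.47 and 1.80 for Scn4b, 0.24 and 0.75 for Scn4a, 0.0047 and 0.29 for Scn7a, 0.012 and 1.11 for Atp1b1, and -0.69 and 0.24 for Fxyd1. The sign of Fxyd1 turned without control replicate 2, and Scn4b and Atp1b1 passed without control replicate 1. Genes called higher numbered 1195 without control replicate 1, and 6, 9 and 6 without control replicate 2, Tbx20_OE replicate 1 and Tbx20_OE replicate 2, against 2 with all libraries. Genes called lower numbered 238, 16, 2 and 0 in the same order, against 0. Sodium handling genes called ranged from 0 to 4. Over all other alternatives the members kept their sign and stayed uncalled, except Scn7a, at -0.015 after median centring and -0.15 with GC-corrected values. Scn4a moved to 0.79 at a pseudocount of 0.1, where Atp1b1 was at 0.57, and Fxyd1 to -0.085 in the quantile-normalized table. Median centring lowered all fold changes by 0.16. Genes called higher fell to 1 with a pseudocount of 0.1, with no filter and with the files per library. The median of the sodium list was 0.043 with no filter, where genes near 0 FPKM join it. Scn4a and Scn7a have no value at a mean of at least 5 FPKM. With a replicate block 3 genes were called higher and 3 lower, and with the crossed block 12 and 18. Deviations of same-numbered libraries correlated at -0.45, and nothing in the labels says that numbers mark pairs. No member was called with either block. Depth is unknown, so no limit from counting can be set on the low values of Scn4a.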
